A study of Oryza sativa with 51 samples.

Results

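The change in leaf mRNA over the first 3 h of the day was taken as the level at ZT3 minus the level at ZT0, and at ZT27 minus ZT24, in each of 3 rice lines. Zeitgeber time (ZT) counts hours from the start of the first sampled day, and no light schedule is stated. These 6 pairs, 1 for each line and day, use 12 of the 51 libraries of the series. The pairs with MH86 come from the restorer parent, those with SE21s from the male-sterile parent and those with LY2186 from the hybrid of both. All plants stood in the field under the same conditions, and all libraries come from flag leaves, the last leaf below the panicle, at grain filling. RNA was read by strand-specific sequencing. There is 1 library for each line and time, and the labels do not say how many plants it holds or whether libraries came from separate plants. P-values therefore measure no more than how these libraries vary, part of which may be technical.

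The plant clock is a set of genes that repress one another in turn through the day. LHY, a MYB repressor, is highest around dawn, the pseudo-response regulator (PRR) genes follow by day, and the evening complex genes ELF3 and LUX act around dusk and at night. At dawn, light acts on the same leaf through phytochromes, cryptochromes and the phytochrome-interacting factors. In leaves, this hour is known for the start of expression of light-harvesting and carbon fixation genes and for the end of nightly starch breakdown.

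The table holds FPKM, fragment numbers scaled by transcript length and by the size of the library. Gene symbols were assigned to locus identifiers from general knowledge of rice, since the files do not pair them. Over the 12 libraries the FPKM sums ran from 1190227 to 1798217, and between 15532 and 16295 genes reached 1 FPKM. The most abundant 3 loci took 38.1% to 54.8% of a sum. Steps among the lowest values place relative depth between 1 and 1.64 times that of the SE21s library at ZT0, and the number of fragments is unknown. For the leaf label, the antenna genes summed to between 642 FPKM (MH86 at ZT24) and 70690 FPKM (SE21s at ZT3). Other green tissue would hold these transcripts too, so the sum cannot single out flag leaves. The 8 grain markers summed to 3.69 to 16.8 FPKM at ZT3 and ZT27 and to 2.18 to 3.11 FPKM at ZT0 and ZT24, with the highest sum in SE21s at ZT27, and 2 of them passed the expression filter. The 9 floral organ markers summed to 13.3 to 23.7 FPKM at ZT3 and ZT27 and to 19.4 to 29.3 FPKM at ZT0 and ZT24. The part of such cells in the results was not tested. Fewer cells of a type and less RNA per cell cannot be told apart in these bulk samples.

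The first 3 h moved much of the leaf transcriptome. Among 16842 genes that averaged 1 FPKM or more, limma called 8680 at an adjusted p under 0.05 (51.5%). Of these, 4121 rose (24.5% of the genes tested) and 4559 fell (27.1%). The median change over all genes was -0.02 on the scale of log2(FPKM + 0.5), on which all changes here are given and which understates those of low genes. Changes of at least 2-fold, or 1 on that scale, were called for 1338 rising genes (7.94%) and 1425 falling genes (8.46%). Changes of at least 3 on that scale were called for 66 rising (0.392%) and 49 falling genes (0.291%). In all 6 pairs 7157 of the called genes moved the same way, and 7603 of all 16842 genes tested did. Since the calls used the same pairs, nothing is read from the larger share among called genes. The pair of SE21s on the second day holds the library with the highest grain marker sum, and without it 3738 genes rose and 4239 fell.

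The median gene moved by 0.514 ± 0.063 in absolute log2 value over this interval (SD, n = 6 pairs). In the other 7 intervals of 3 h through the day the mean lay between 0.247, for 15 to 18 h, and 0.396, for 12 to 15 h. The first interval was the larger in 6 of 6 pairs against 6 of the intervals, among them 12 to 15 h (difference 0.118 ± 0.074), and in 5 of 6 pairs against 3 to 6 h (0.176 ± 0.103). An exact two-sided sign-flip permutation test over the pairs gave p = 0.03125 for these 6 intervals, the smallest it can give, and 0.0625 for 3 to 6 h, with 0.0365 and 0.0625 after adjustment over 7 comparisons. The interval of 3 to 6 h shares a library with the first in each pair, and that of 21 to 24 h on the first day ends with the library that opens the second day.

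**Figure D1:**
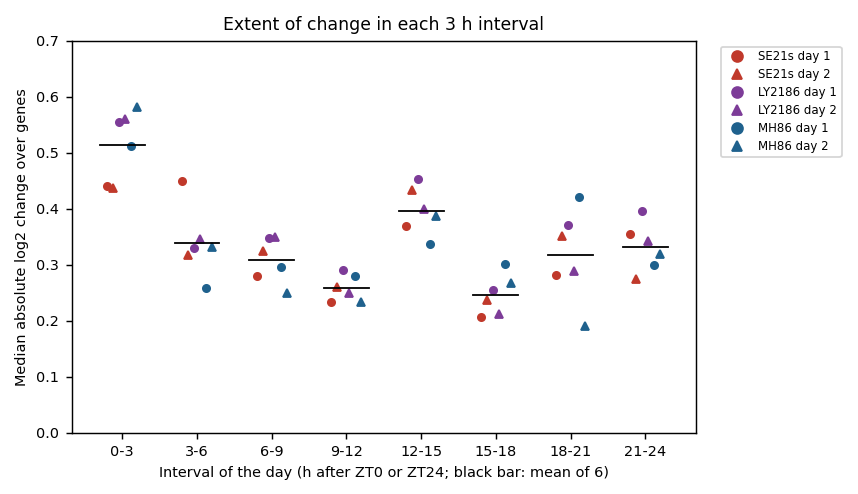
Median absolute log2 change over the 16842 genes in each 3 h interval of the day, with 1 point for each line and day and a bar for the mean of 6. The first interval has the highest mean, 0.514, and its 6 points lie between 0.436 and 0.582.

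Within the clock list, 4 of 13 genes rose, 4 fell and 5 did not pass. Each list count here and below stands beside the 24.5% of all genes tested that rose and the 27.1% that fell. A count near these shares says nothing about its list. The list median was -0.08. PRR73 and PRR37, pseudo-response regulators that repress LHY, were near 0 at the start of the day and among the most abundant clock transcripts 3 h later. PRR73 stood at 268 and 294 FPKM in SE21s libraries, 277 and 289 FPKM in LY2186 libraries and 238 and 236 FPKM in MH86 libraries at ZT3 and ZT27, against 0.253 and 0.193 FPKM (SE21s), 0.277 and 0.112 FPKM (LY2186) and 0.0993 and 0.0677 FPKM (MH86) at ZT0 and ZT24. The groups lie far apart, and the change was 8.65 ± 0.10 (SE; 402-fold; limma, adjusted p = 9.89e-10). PRR37 ran from 104 to 166 FPKM at ZT3 and ZT27 and from 0.105 to 0.192 FPKM at ZT0 and ZT24, a change of 7.79 ± 0.12 (adjusted p = 9.08e-09).

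GI, a large protein that joins the clock to flowering time, had 77.6 and 113 FPKM in SE21s, 80.0 and 132 in the hybrid and 93.9 and 97.2 in MH86 at ZT3 and ZT27, against 0.454 to 0.928 FPKM in the 6 libraries of ZT0 and ZT24. Its change was 6.40 ± 0.15 (84.3-fold with 0.5 added to each FPKM, adjusted p = 1.37e-07), and the ratio of mean FPKM was 147.5. PRR95 already stood at 3.11 to 6.39 FPKM at ZT0 and ZT24 and had 49.1 to 79.5 FPKM at ZT3 and ZT27 (3.79 ± 0.16, adjusted p = 3e-06). These genes differ in where they stood afterwards. At 6 h PRR73 averaged 282 FPKM, close to its mean of 267 at 3 h, while GI averaged 443.5 FPKM at 6 h and 99.0 at 3 h.

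PRR59, a further pseudo-response regulator, fell in these hours, with 7.36 to 20.6 FPKM at ZT3 and ZT27 and 18.9 to 55.9 FPKM at ZT0 and ZT24 (-1.37 ± 0.13, adjusted p = 0.000109). The ranges of the hours overlap across lines but not within a line. ELF3-1 fell by 0.97 on the log2 scale (adjusted p = 0.000298), with 38.1 to 50.01 FPKM at ZT3 and ZT27 and 68.7 to 103 FPKM at ZT0 and ZT24. ELF3-2 had 0.719 and 1.17 FPKM in SE21s libraries, 1.89 and 2.08 FPKM in LY2186 libraries and 2.17 and 1.84 FPKM in MH86 libraries at ZT3 and ZT27, against 2.35 and 3.94 FPKM (SE21s), 27.8 and 28.0 FPKM (LY2186) and 55.5 and 92.7 FPKM (MH86) at ZT0 and ZT24. The lines were all at or below 2.17 FPKM after 3 h and lay farther apart at the start of the day. The change of ELF3-2 was -3.23 ± 0.55 (adjusted p = 0.00216). LOC_Os02g05700, one of a pair of genes like ZTL, a blue light receptor of the clock, fell by 0.33 on the log2 scale (adjusted p = 0.015), and with quantile normalization it did not pass (adjusted p = 0.116).

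LHY had 1648 and 1912 FPKM in SE21s libraries, 1885 and 2216 FPKM in LY2186 libraries and 1472 and 1533 FPKM in MH86 libraries at ZT3 and ZT27, against 3487 and 3183 FPKM (SE21s), 2723 and 3041 FPKM (LY2186) and 1785 and 1281 FPKM (MH86) at ZT0 and ZT24. It was lower at the later hour in 5 of 6 pairs, all but that of MH86 on the second day, and missed the threshold over the 3 lines (-0.47 ± 0.18, adjusted p = 0.0598). In SE21s by itself LHY fell (-0.91 ± 0.22, adjusted p = 0.0325), while its change was -0.49 in the hybrid (0.129) and -0.009 in MH86 (0.987), and the F-test over lines did not call it (0.321). Over the 3 lines it passed without the MH86 pair of the second day (adjusted p = 0.0182), with quantile normalization (0.0113) and with line in place of the pair block (0.0338). The second ZTL-like gene, LOC_Os06g47890, missed the threshold too (-0.26 ± 0.10, adjusted p = 0.0597). FKF1, a relative of ZTL, had at most 0.22 FPKM in the 12 libraries, and LUX/PCL1 (adjusted p = 0.891) and PRR1/TOC1 (0.92) moved up in 3 pairs and down in 3. Both genes rose in both pairs of SE21s and fell in both pairs of MH86, and the F-test over lines called neither (adjusted p = 0.289 and 0.34).

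**Figure D2:**
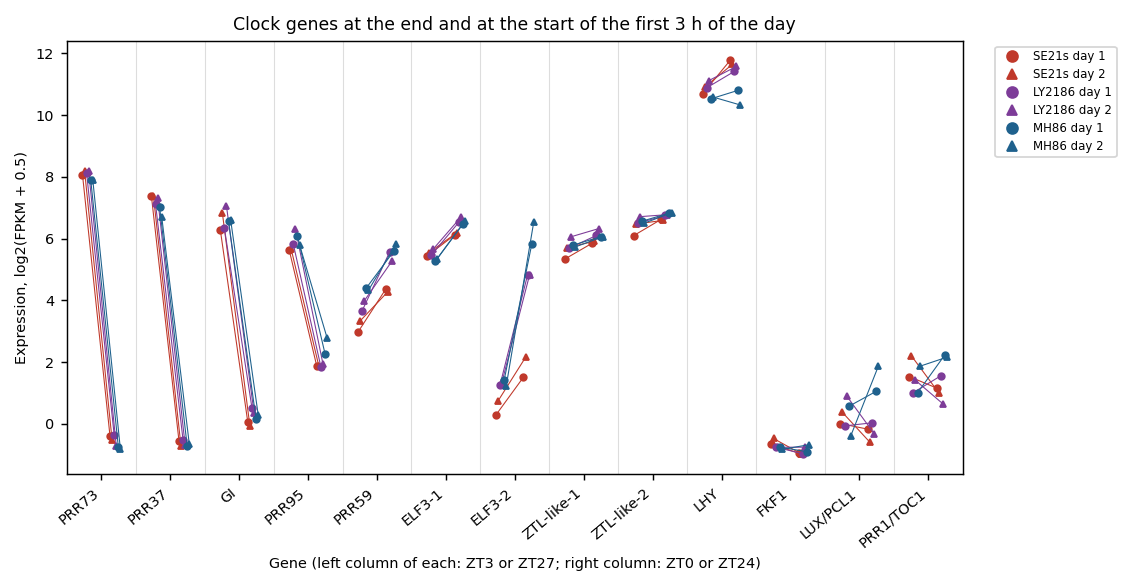
Levels of the 13 clock genes on the scale of log2(FPKM + 0.5). For each gene the left column holds ZT3 and ZT27 and the right column ZT0 and ZT24, with a line joining the libraries of 1 line and day. PRR73, PRR37, GI and PRR95 are higher in the left column in 6 of 6 pairs, and ELF3-2 has its lines farther apart in the right column.

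Among photoreceptor genes 2 of 6 rose and 3 fell (median -0.42). CRY2, a cryptochrome that senses blue light, had 25.9 to 51.5 FPKM at ZT3 and ZT27 and 13.7 to 25.1 FPKM at ZT0 and ZT24 (1.02 ± 0.10, adjusted p = 0.000129). The phytochrome genes PHYC (-0.93 ± 0.16) and PHYB (-0.61 ± 0.11) and the cryptochrome gene CRY1b (-0.46 ± 0.11) fell, each in 6 of 6 pairs, and PHYA was not called (-0.39, adjusted p = 0.0746). Of 6 light signalling genes tested, 2 rose and none fell by limma (median 0.16). PIL13, a phytochrome-interacting factor-like transcription factor, had 854 and 711 FPKM in SE21s libraries, 550 and 367 FPKM in LY2186 libraries and 310 and 257 FPKM in MH86 libraries at ZT3 and ZT27, against 90.8 and 70.1 FPKM (SE21s), 32.3 and 36.9 FPKM (LY2186) and 18.6 and 13.7 FPKM (MH86) at ZT0 and ZT24. SE21s was highest and MH86 lowest at both hours of either day, and the change was 3.69 ± 0.17 (12.9-fold, adjusted p = 4.41e-06). PIL12 rose as well (1.26 ± 0.17). COP1, a ubiquitin ligase that acts in the dark, was not called (0.09 ± 0.12, adjusted p = 0.566), and neither were PIL11, PIL14 and bZIP01.

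Among flowering time genes, 2 of 10 rose while 5 fell (median -0.57). Hd3a, a florigen gene whose protein travels from leaf to shoot tip, had 15.9 and 36.2 FPKM in SE21s libraries, 137 and 137 FPKM in LY2186 libraries and 185 and 156 FPKM in MH86 libraries at ZT3 and ZT27, against 7.83 and 8.76 FPKM (SE21s), 50.9 and 72.5 FPKM (LY2186) and 60.6 and 38.0 FPKM (MH86) at ZT0 and ZT24 (1.49 ± 0.17, adjusted p = 0.00026). Hd3a was higher at the later hour in 6 of 6 pairs, and SE21s was the lowest line at each time.

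The CONSTANS-like genes went the other way. DTH2 had 0.581 and 1.58 FPKM in SE21s libraries, 1.38 and 1.64 FPKM in LY2186 libraries and 1.18 and 1.497 FPKM in MH86 libraries at ZT3 and ZT27, against 4.56 and 5.73 FPKM (SE21s), 32.8 and 31.8 FPKM (LY2186) and 71.4 and 102 FPKM (MH86) at ZT0 and ZT24 (-3.83 ± 0.56, adjusted p = 0.00114). Hd1 fell by 1.69 on the log2 scale (adjusted p = 0.000876). MADS15, a meristem identity gene of the AP1 group, had 16.1 to 93.7 FPKM at ZT3 and ZT27 and 71.2 to 313 FPKM at ZT0 and ZT24 (-1.69 ± 0.17, adjusted p = 0.000159).

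The antenna genes, which encode the chlorophyll-binding proteins around the photosystems, made the largest shift of the 30 lists. Of 14 tested, 12 rose and 2 fell, with a median of 3.57. With quantile normalization 11 rose and 2 fell, with a median of 3.42. The rise of LHCB6 missed the threshold there (limma, adjusted p = 0.0555) and without any 1 pair of LY2186 or MH86 (0.0533 to 0.103). CAB2R, a major protein of photosystem II antennae, had 8910 and 2882 FPKM in SE21s libraries, 2074 and 635 FPKM in LY2186 libraries and 460 and 719 FPKM in MH86 libraries at ZT3 and ZT27, against 897 and 492 FPKM (SE21s), 79.8 and 26.5 FPKM (LY2186) and 19.6 and 20.2 FPKM (MH86) at ZT0 and ZT24 (4.12 ± 0.32, adjusted p = 5.32e-05). The level was higher at the later hour in 6 of 6 pairs, and SE21s was highest at each time. On the first day MH86 stood lower after 3 h than SE21s did at the start of the day, and on the second day it stood higher. LHCB4 (3.17 ± 0.36) and LHCB3 (5.20 ± 0.61) rose in 6 of 6 pairs, and CAB1R had the largest change of the list (6.25 ± 0.83, adjusted p = 0.000993, chosen after its values were seen). LHCA6, an antenna gene of photosystem I, fell to 3.36 to 28.1 FPKM at ZT3 and ZT27, against 19.4 to 59.0 FPKM at ZT0 and ZT24 (-1.97 ± 0.22, adjusted p = 0.000213). The other falling member was LHCB1.3 (-1.14 ± 0.21, chosen after its values were seen). Antenna genes are families of similar copies, and the files do not say how fragments that fit several copies were counted.

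Genes of the photosystem cores and electron transport moved less, with 8 of 15 rising, none falling by limma and a median of 0.70. At an unadjusted p under 0.05, 9 rose and 0 fell. PSAD, a photosystem I subunit that docks ferredoxin, had 1726 to 7312 FPKM at ZT3 and ZT27 and 371 to 2613 FPKM at ZT0 and ZT24 (1.60 ± 0.19, adjusted p = 0.000271). PSAL (1.22 ± 0.16), PSAO (1.24 ± 0.26) and PSAF (0.82 ± 0.18) rose in 6 of 6 pairs. With quantile normalization 6 of the 15 rose and the median was 0.44.

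Among photoprotection genes 3 of 4 rose and 1 fell, with a median of 3.08. ZEP, zeaxanthin epoxidase, which returns zeaxanthin to violaxanthin, had 226 and 226 FPKM in SE21s libraries, 157 and 160 FPKM in LY2186 libraries and 128 and 126 FPKM in MH86 libraries at ZT3 and ZT27, against 35.8 and 28.5 FPKM (SE21s), 11.2 and 13.4 FPKM (LY2186) and 9.21 and 10.3 FPKM (MH86) at ZT0 and ZT24 (3.36 ± 0.16, adjusted p = 6.18e-06). VDE, the enzyme of the opposite step, fell to 13.4 to 37.9 FPKM at ZT3 and ZT27, against 37.3 to 119 FPKM at ZT0 and ZT24 (-1.58 ± 0.11, adjusted p = 2.84e-05). PSBS1 and PSBS2, which encode the sensor of heat dissipation, rose by 3.20 ± 0.33 and 2.96 ± 0.20.

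In chlorophyll synthesis 6 of 14 rose and 3 fell (median 0.36), and with quantile normalization 7 rose and 1 fell. The subunits of 1 enzyme did not move together. CHLH, the large subunit of magnesium chelatase, had 616 and 769 FPKM in SE21s libraries, 533 and 648 FPKM in LY2186 libraries and 381 and 430 FPKM in MH86 libraries at ZT3 and ZT27, against 409 and 439 FPKM (SE21s), 192 and 232 FPKM (LY2186) and 83.4 and 68.8 FPKM (MH86) at ZT0 and ZT24 (1.53 ± 0.26, adjusted p = 0.00175). CHLD, another subunit of it, fell by 0.78 on the log2 scale (adjusted p = 0.00187), with 18.3 to 30.6 FPKM at ZT3 and ZT27 and 27.8 to 71.2 FPKM at ZT0 and ZT24. The protochlorophyllide reductase genes PORA (2.22 ± 0.25) and PORB (1.18 ± 0.20) rose, PORA with no more than 8.45 FPKM in the 12 libraries. Of chlorophyll breakdown genes 4 of 7 rose and 1 fell (median 0.90). NAP, a NAC factor of leaf senescence, had 63.9 to 95.1 FPKM at ZT3 and ZT27 and 13.9 to 29.0 FPKM at ZT0 and ZT24 (1.95 ± 0.14, adjusted p = 3.46e-05). PAO (0.92 ± 0.10) and NYC3 (0.90 ± 0.12), enzymes that open and dismantle chlorophyll, rose and NYC1, which converts chlorophyll b, fell (-0.53 ± 0.15), which quantile normalization did not keep (adjusted p = 0.0557). The regulators of chloroplast genes GLK1, GLK2 and Cga1 were not called, with changes of 0.08, -0.06 and 0.10. Their adjusted p lay between 0.505 and 0.774.

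Carotenoid and isoprenoid genes had 4 rising and 4 falling of 11, among them DXR (0.89 ± 0.14) and ZDS (0.60 ± 0.10) on the rising side and CYP97A4 (-0.72 ± 0.21) on the falling side, the last not called without either MH86 pair (adjusted p = 0.0582 and 0.0522). With quantile normalization 1 of the 4 falls was called.

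In carbon fixation 10 of 14 genes rose and 1 was called lower (median 0.67). GAPB, a subunit of the chloroplast glyceraldehyde-3-phosphate dehydrogenase, had 1285 and 689 FPKM in SE21s libraries, 826 and 664 FPKM in LY2186 libraries and 509 and 661 FPKM in MH86 libraries at ZT3 and ZT27, against 316 and 198 FPKM (SE21s), 129 and 114 FPKM (LY2186) and 66.3 and 50.1 FPKM (MH86) at ZT0 and ZT24 (2.61 ± 0.23, adjusted p = 8.74e-05). Its partner GAPA had 671 to 2558 FPKM at ZT3 and ZT27 and 75.2 to 1438 FPKM at ZT0 and ZT24 (1.82 ± 0.37, adjusted p = 0.00372). RPI (1.24 ± 0.20) and FBPase (0.91 ± 0.15), enzymes of the Calvin cycle, rose as well. The gene called lower is RCA, Rubisco activase, which is listed at 0 in 6 of the 12 libraries, namely both second-day libraries of SE21s and the ZT3 and ZT27 libraries of LY2186 and MH86, beside values of 4698 to 25229 FPKM. An exact 0 among such values can be a failed estimate, and with these zeros set missing its change was 0.071 (adjusted p = 0.929). With quantile normalization 6 carbon fixation genes rose.

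Of 10 photorespiration and catalase genes 4 rose and 1 fell (median 0.28). CATA, a catalase that removes hydrogen peroxide, had 698 and 599 FPKM in SE21s libraries, 827 and 1075 FPKM in LY2186 libraries and 781 and 687 FPKM in MH86 libraries at ZT3 and ZT27, against 115 and 116 FPKM (SE21s), 166 and 52.4 FPKM (LY2186) and 38.6 and 24.8 FPKM (MH86) at ZT0 and ZT24 (3.45 ± 0.37, 10.9-fold, adjusted p = 0.000218). The serine-glyoxylate aminotransferase gene AGT, of photorespiration, fell to 1433 to 2381 FPKM at ZT3 and ZT27, against 2937 to 8507 FPKM at ZT0 and ZT24 (-1.53 ± 0.28, adjusted p = 0.00231). Among 5 ascorbate peroxidase genes APX7 rose (1.13 ± 0.17) and APX1 fell (-0.94 ± 0.16), and with quantile normalization 1 rose and 2 fell.

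Starch genes moved on both sides of the pathway. In starch synthesis 8 of 14 rose and 2 fell (median 0.57). BEIIa, a branching enzyme, had 39.8 and 118 FPKM in SE21s libraries, 42.3 and 96.9 FPKM in LY2186 libraries and 37.5 and 47.7 FPKM in MH86 libraries at ZT3 and ZT27, against 9.78 and 10.8 FPKM (SE21s), 2.78 and 2.93 FPKM (LY2186) and 3.76 and 4.40 FPKM (MH86) at ZT0 and ZT24 (3.39 ± 0.30, adjusted p = 9.08e-05). GBSSII, the granule-bound synthase of leaves, had 283 to 658 FPKM at ZT3 and ZT27 and 21.8 to 245 FPKM at ZT0 and ZT24 (2.38 ± 0.35, adjusted p = 0.000841). AGPL1 (2.16 ± 0.26), a subunit of ADP-glucose pyrophosphorylase, which makes the substrate, and the starch synthase gene SSI (2.30 ± 0.29) rose too. In starch breakdown 7 of 11 rose and 1 fell (median 0.44). The 1 that fell, BAM3, a plastid beta-amylase, had 12.7 and 12.1 FPKM in SE21s libraries, 31.1 and 17.7 FPKM in LY2186 libraries and 31.6 and 19.2 FPKM in MH86 libraries at ZT3 and ZT27, against 180 and 147 FPKM (SE21s), 387 and 747 FPKM (LY2186) and 624 and 722 FPKM (MH86) at ZT0 and ZT24. Its change, -4.30 ± 0.27 (19.6-fold lower, adjusted p = 2.14e-05), was the largest fall among the members with no doubtful 0. GWD1, the glucan, water dikinase that starts breakdown, rose (1.14 ± 0.11), as did the phosphorylase genes PHOH (1.49 ± 0.17) and PHO1 (1.43 ± 0.16), the second at no more than 1.90 FPKM.

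Sucrose genes had 3 of 14 rising and 4 falling (median -0.26), and 3 rising and 2 falling with quantile normalization. The main counts are close to the shares over all genes tested, 24.5% rising and 27.1% falling. SWEET14, a sugar exporter, had 3.37 and 6.99 FPKM in SE21s libraries, 18.8 and 18 FPKM in LY2186 libraries and 17.9 and 18.1 FPKM in MH86 libraries at ZT3 and ZT27, against 27.1 and 63.2 FPKM (SE21s), 56.6 and 81.1 FPKM (LY2186) and 60.0 and 121 FPKM (MH86) at ZT0 and ZT24 (-2.34 ± 0.21, adjusted p = 8.87e-05). The sucrose transporter gene SUT1 was called lower too, by 0.56 on the log2 scale, but missed the threshold in a fit of all 51 libraries (limma, adjusted p = 0.064). The sucrose synthase gene SUS2 rose (1.07 ± 0.15). In nitrogen assimilation 5 of 10 rose and 2 fell (median 0.69). GS1;1, a cytosolic glutamine synthetase, had 222 to 547 FPKM at ZT3 and ZT27 and 59.0 to 103 FPKM at ZT0 and ZT24 (2.38 ± 0.26, adjusted p = 0.000211). The nitrite reductase gene NiR rose (2.80 ± 0.36), with 6.99 to 35.2 FPKM at ZT3 and ZT27 and 1.12 to 1.75 FPKM at ZT0 and ZT24 in 5 pairs, while MH86 had 241 FPKM at ZT27 and 125 FPKM at ZT24. Fd-GOGAT, which follows glutamine synthetase, rose by 1.01 ± 0.17, and the nitrate reductase gene NIA2 fell by 1.45 on the log2 scale, with no more than 4.62 FPKM in the 12 libraries.

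**Figure D3:**
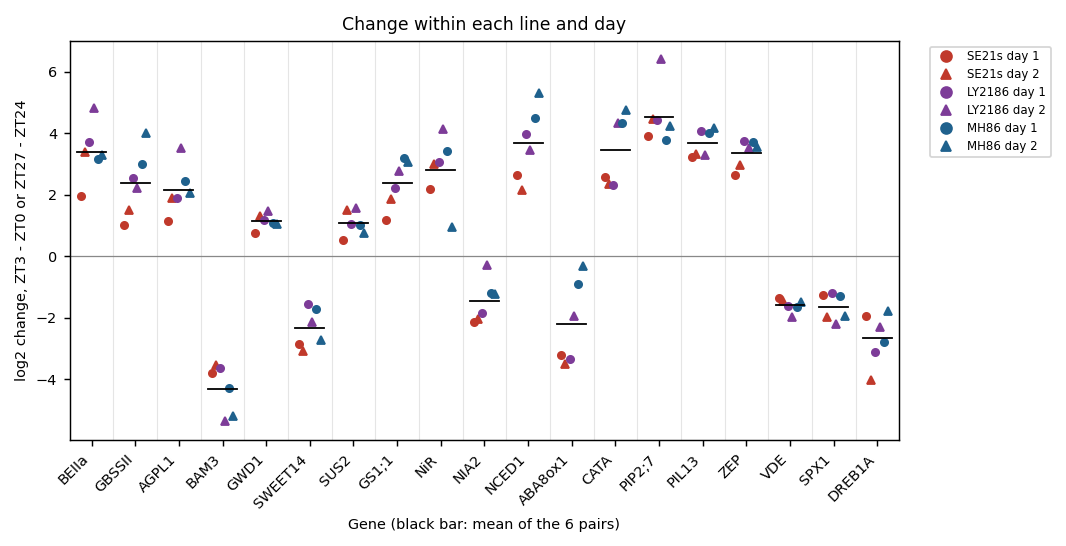
Change on the log2(FPKM + 0.5) scale within each line and day for 19 genes named in the text, with a bar for the mean of 6 pairs. BAM3, SWEET14 and DREB1A lie below 0 in 6 of 6 pairs and BEIIa, NCED1, CATA and PIP2;7 above 0 in 6 of 6 pairs, with NCED1 and GBSSII lowest in SE21s.

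None of 5 heat shock genes rose by limma and 3 fell (median -1.10). HSFA2c, a heat stress transcription factor, had 7.92 to 11.3 FPKM at ZT3 and ZT27 and 19.0 to 39.9 FPKM at ZT0 and ZT24 (-1.44 ± 0.14, adjusted p = 0.000113), and HSFA2d (-1.31 ± 0.14) and HSP24.1 (-1.10 ± 0.26) fell with it. DREB1A, a cold response factor, had no more than 3.57 FPKM at ZT3 and ZT27 and 3.12 to 15.02 FPKM at ZT0 and ZT24 (-2.65 ± 0.29, adjusted p = 0.00019). DREB1B fell too (-2.33 ± 0.41), and DREB2B, a drought and heat factor, rose (1.0 ± 0.11), which makes 1 rising and 2 falling of 4. Of 6 defence genes none passed by limma (median -0.04), and their adjusted p lay between 0.5 and 0.956. In the heat shock, gibberellin, SPX, defence, light signalling and chloroplast regulator lists, where no member passed in a direction, the count at an unadjusted p under 0.05 was 0 there too. SPX1 and SPX2, sensors of phosphate status, both fell (-1.65 ± 0.16 and -0.73 ± 0.15).

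Among the hormone lists, that of abscisic acid held the members with the largest rise and the largest fall. NCED1, the dioxygenase of the committed step of abscisic acid synthesis, had 929 and 890 FPKM in SE21s libraries, 1376 and 1136 FPKM in LY2186 libraries and 1240 and 1210 FPKM in MH86 libraries at ZT3 and ZT27, against 149 and 201 FPKM (SE21s), 86.9 and 102 FPKM (LY2186) and 54.7 and 30.2 FPKM (MH86) at ZT0 and ZT24 (3.67 ± 0.38, 12.7-fold, adjusted p = 0.000185). ABA8ox1, which inactivates the hormone, had 0.698 to 3.61 FPKM at ZT3 and ZT27 and 4.59 to 18.7 FPKM at ZT0 and ZT24 (-2.19 ± 0.45, adjusted p = 0.00435). A second gene of inactivation, ABA8ox3, rose at low levels (1.28 ± 0.24, at most 7.61 FPKM), as did NCED5 (0.84 ± 0.21), so 3 of 5 rose and 1 fell (median 0.84). No gibberellin gene of 4 rose by limma and 3 fell, namely the receptor gene GID1 (-0.62 ± 0.10), the synthesis gene GA20ox1 (-1.08 ± 0.31) and the DELLA repressor gene SLR1 (-0.38 ± 0.13). GA20ox1 and SLR1 missed the threshold when any 1 pair of SE21s or LY2186 was left out, with adjusted p of at most 0.0591 for GA20ox1 and 0.0921 for SLR1. In jasmonate 2 of 9 rose, AOC, an enzyme of its synthesis (1.04 ± 0.14), and MYC2, its transcription factor (0.32 ± 0.09), and TIFY11d, a repressor gene, fell (-0.56 ± 0.17). MYC2 was not called without the MH86 pair of day 1 (adjusted p = 0.0627), and TIFY11d was not called without the second-day pair of LY2186 (0.0634) or MH86 (0.0711). Of 6 cytokinin type-A response regulators RR10 rose (0.83 ± 0.30) and RR6 (-1.13 ± 0.18) and RR1 (-0.59 ± 0.17) fell. RR10 was not called when any 1 pair other than that of LY2186 on day 2 was left out (adjusted p = 0.0886 to 0.116), and RR1 missed the threshold without the MH86 pair of day 1 (0.0576). RR9 and RR10 are almost the same in sequence, so the share of fragments given to each is uncertain.

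Plasma membrane aquaporins, which pass water through leaf cells, had 4 of 7 rising and 1 falling (median 0.85). PIP2;7 had 136 and 116 FPKM in SE21s libraries, 52.6 and 64.9 FPKM in LY2186 libraries and 17.1 and 65.9 FPKM in MH86 libraries at ZT3 and ZT27, against 8.54 and 4.80 FPKM (SE21s), 1.95 and 0.263 FPKM (LY2186) and 0.774 and 2.99 FPKM (MH86) at ZT0 and ZT24 (4.54 ± 0.31, 23.4-fold, adjusted p = 3.54e-05). PIP2;2 (1.59 ± 0.29) and PIP1;1 (1.15 ± 0.21) rose too, and PIP2;6 fell (-0.89 ± 0.28). Genes used as references in qPCR had 2 of 5 rising and 0 falling by limma, while 51.5% of all genes tested were called. ACT1 (0.49 ± 0.15, adjusted p = 0.0226) and UBQ5 (0.72 ± 0.24, adjusted p = 0.0315) of 5 rose with the deposited scaling and with both others tried, and both missed the threshold when any 1 pair of LY2186 or MH86 was left out (adjusted p = 0.055 to 0.0717 for ACT1 and 0.0686 to 0.0902 for UBQ5). Of the marker lists, the glutelin gene GLUA2 rose (1.12 ± 0.16, at most 5.89 FPKM) and the floral gene MADS16 fell (-0.52 ± 0.10), out of 2 and 3 tested.

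Outside the lists, the largest rises among loci with a mean above 10 FPKM, called and higher in 6 of 6 pairs, were those of LOC_Os01g17396 (55.8 to 97.1 FPKM at ZT3 and ZT27 and listed at 0 to 0.277 FPKM at ZT0 and ZT24) and LOC_Os12g40920 (18.2 to 119 FPKM and 0.218 to 0.613 FPKM). The largest falls were those of LOC_Os06g50080 (0.283 to 2.93 FPKM at ZT3 and ZT27 and 34.3 to 240 FPKM at ZT0 and ZT24) and LOC_Os04g49450 (0.337 to 1.58 FPKM and 19.3 to 370 FPKM). The files name no function for them.

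**Figure D4:**
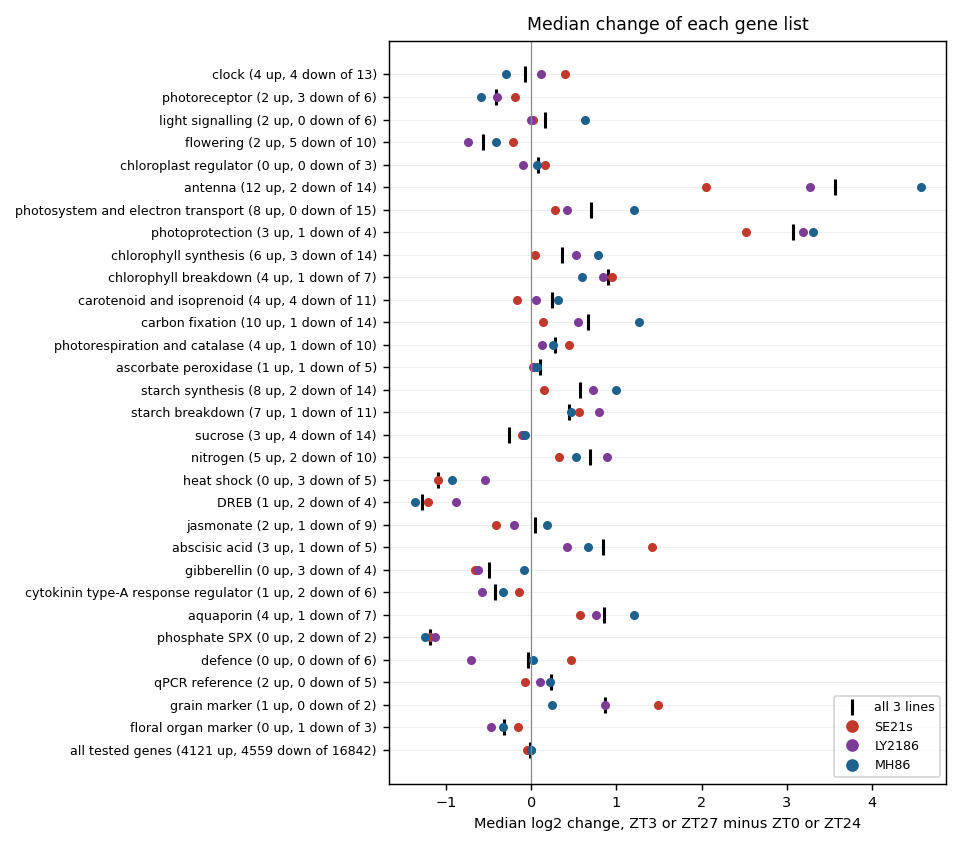
Median log2 change of each gene list and of all genes tested, over the 3 lines (black bar) and in each line (points), with the number of members that rose and fell by limma in the row label. The antenna and photoprotection lists lie farthest to the right at 3.57 and 3.08, and the median of all genes lies at -0.02.

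The lines were compared next, which bears on how the hybrid stands between its parents. Called in a line by itself were 3830 genes in SE21s (22.7%), 6029 in LY2186 (35.8%) and 6328 in MH86 (37.6%), each line having 2 pairs and sharing an estimate of the spread. These counts depend on single pairs. Without a pair of its own on day 1 or day 2, SE21s had 543 or 607, LY2186 had 3855 or 3714 and MH86 had 2181 or 1144, and SE21s had 2429 or 2443 without a pair of MH86. The median gene moved by 0.441 and 0.436 in absolute log2 value in SE21s on day 1 and day 2, by 0.554 and 0.561 in LY2186, and by 0.512 and 0.582 in MH86. Across genes, which are not independent replicates, the 2 days of a line correlated at r = 0.685 in SE21s, 0.649 in the hybrid and 0.779 in MH86 over the 16842 changes.

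The difference itself was tested with the interaction of line and time. The F-test over 3 lines called 48 genes (0.285%), and 2952 had an unadjusted p under 0.05. SE21s minus MH86 was called for 160 genes (0.95%), 72 with the higher and 88 with the lower value in SE21s (0.523% of the genes tested). In 119 of these the change was larger in absolute value in MH86. The share over all genes was not counted, and the median gene also moved more in MH86 than in SE21s, so nothing is read from the 119. In 142 of the 160 the change of LY2186 lay between those of the parents. Over all 16842 genes tested it lay between them in 7566, and since the 160 were chosen for their parental difference nothing is read from the larger share. LY2186 minus SE21s was called for 7 genes (0.0416%), LY2186 minus MH86 for 5 (0.0297%) and LY2186 minus the mid-parent for 4 (0.0238%). Leaving out a pair on day 1 or day 2 gave 19 or 26 genes in SE21s minus MH86 without SE21s, 23 or 25 without MH86 and 348 or 337 without LY2186. The F-test called 4 or 11, 11 or 16, and 78 or 73 in the same order. Of 14 list members called in SE21s minus MH86, 3 were called whichever pair was left out, among them LHCB2 and RCA, and the other 11 lost the call without at least 1 pair. All kept their direction. Over all alternatives run, 1 of the 14 kept its call in each and 13 lost it in at least 1. Without the filter on low values, LHCB2 and every other antenna gene of the 14, DTH2 and ELF3-2 missed the threshold (limma, adjusted p = 0.0788 to 0.156).

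The antenna list held 5 of the 48 genes by F-test and 7 of the 88 with the lower value in SE21s minus MH86. Its median change was 2.05 in SE21s, 3.28 in the hybrid and 4.58 in MH86. LHCB2, a photosystem II antenna gene, had 5062 and 2294 FPKM in SE21s libraries, 2382 and 1553 FPKM in LY2186 libraries and 1182 and 1549 FPKM in MH86 libraries at ZT3 and ZT27, against 1212 and 674 FPKM (SE21s), 115 and 63.5 FPKM (LY2186) and 5.17 and 2.61 FPKM (MH86) at ZT0 and ZT24. The lines lay within a few fold of one another after 3 h, SE21s at 2.69 times MH86 in the mean of 2 days, and at 243 times it at the start of the day. The change was 1.91 in SE21s, 4.48 in the hybrid and 8.33 in MH86, and SE21s minus MH86 was -6.42 ± 0.43 (adjusted p = 0.00559).

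LHCA4, an antenna gene of photosystem I, repeats this pattern, with 11826 and 6830 FPKM in SE21s libraries, 7659 and 4877 FPKM in LY2186 libraries and 5187 and 4337 FPKM in MH86 libraries at ZT3 and ZT27, against 1336 and 941 FPKM (SE21s), 288 and 284 FPKM (LY2186) and 38.8 and 23.0 FPKM (MH86) at ZT0 and ZT24 (SE21s minus MH86 -4.28 ± 0.34, adjusted p = 0.0118). LHCA1 (-3.62 ± 0.28, adjusted p = 0.0107) and the remaining 2 of the 5, CAB1R (-5.16 ± 0.51) and LHCB5 (-4.86 ± 0.40), both named after their values were seen, had the smaller change in SE21s as well. Over the whole list, the median level of SE21s minus that of MH86 was 2.07 and 0.67 on the log2 scale at ZT3 and ZT27, against 5.05 and 4.70 at ZT0 and ZT24.

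Chlorophyll synthesis and carbon fixation lists had line medians in the same order, with 0.04 in SE21s, 0.52 in the hybrid and 0.78 in MH86 for the one and 0.14, 0.55 and 1.27 for the other. Single members mostly missed the threshold for the difference. CHLH, whose change was 0.70, 1.48 and 2.41 in these lines, passed in SE21s minus MH86 (-1.71 ± 0.26, adjusted p = 0.0472) and not by F-test (0.1). Of carbon fixation genes RCA alone was called, on its zeros. NCED1 (-2.51 ± 0.37, adjusted p = 0.0454) and GA20ox1 (-1.73 ± 0.27, adjusted p = 0.0488) passed in the same contrast, with changes of GA20ox1 of -1.62 in SE21s, -1.73 in the hybrid and 0.11 in MH86. CHLH, NCED1 and GA20ox1 also missed the threshold with median-ratio scaling (adjusted p = 0.0538, 0.0587 and 0.0574).

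DTH2 had changes of -1.90 in SE21s, -4.03 in the hybrid and -5.55 in MH86 (SE21s minus MH86 3.64 ± 0.31, adjusted p = 0.0125), and ELF3-2 had -1.32, -3.51 and -4.85 in the same order (3.53 ± 0.35, adjusted p = 0.0199). For DTH2 and ELF3-2 the lines lay closer together at ZT3 and ZT27 than at ZT0 and ZT24. No other clock gene was called. PRR73 had changes of 8.60 in SE21s, 8.68 in the hybrid and 8.67 in MH86 (F-test, adjusted p = 0.97). At ZT0 and ZT24 PRR73 had at most 0.277 FPKM, below the constant added to each FPKM, which damps differences between lines there. Its mean FPKM in SE21s was 2.67 times that in MH86 at ZT0 and ZT24 and 1.18 times at ZT3 and ZT27. For this reason the F-test cannot decide whether the fold change of PRR73 was alike in the lines.

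**Figure D5:**
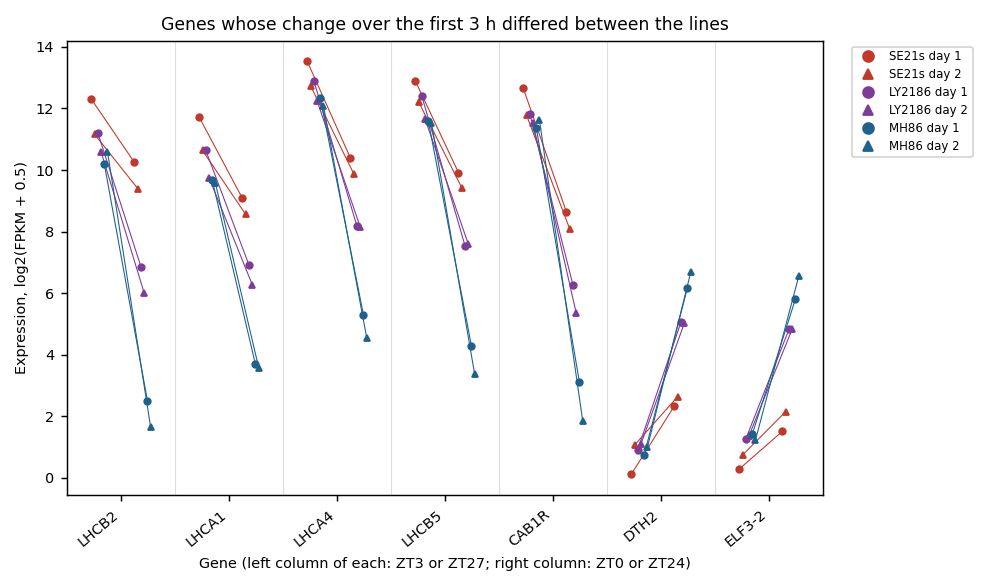
Levels on the scale of log2(FPKM + 0.5) of 7 list members called by the F-test over lines, RCA left out for its zeros. For each gene the left column holds ZT3 and ZT27 and the right column ZT0 and ZT24. SE21s (red) starts highest in the antenna genes and lowest in DTH2 and ELF3-2.

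For the hybrid contrasts the called genes are few and partly rest on zeros. LY2186 minus MH86 called LOC_Os05g02070 (3.91 ± 0.23), LOC_Os04g51454 (4.85 ± 0.31), listed at 0 in MH86, and 3 more loci with a 0 among their libraries, and LY2186 minus the mid-parent called LOC_Os05g02070 (3.09 ± 0.20), RCA and 2 of those loci. These loci were named after their values were seen. LOC_Os05g02070 had a change of 1.16 in LY2186, -1.10 in SE21s and -2.75 in MH86. LY2186 minus MH86 called 25 or 21 genes without a pair of LY2186 and LY2186 minus the mid-parent 23 or 13. Unadjusted p was under 0.05 for 2352 genes in LY2186 minus SE21s, 1503 in LY2186 minus MH86 and 1293 in LY2186 minus the mid-parent.

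Over all genes the lines lay closer together at the later hour, except SE21s and MH86 on the first day. The median absolute log2 difference of SE21s and MH86 was 0.531 at ZT3 and 0.486 at ZT0 on the first day, and 0.356 at ZT27 and 0.50 at ZT24 on the second. Between LY2186 and SE21s it was 0.332 at ZT3 and 0.386 at ZT0, and 0.319 at ZT27 and 0.358 at ZT24. Between LY2186 and MH86 it was 0.285 at ZT3 and 0.328 at ZT0, and 0.279 at ZT27 and 0.349 at ZT24. These are descriptions, with 1 value for each day.

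The second day was set against the first with line as a block. Limma called 1 gene (0.00594%), LOC_Os06g09950 (6.65 ± 0.32), which holds a doubtful 0, and 1392 genes had an unadjusted p under 0.05. With 3 pairs a day, a p that misses the threshold does not show that the days were alike. Without the SE21s pair of day 1 or day 2 the count was 46 or 53. The libraries of ZT48, which belong to no pair, give a further start of a day. Against ZT48, the mean of ZT3 and ZT27 lay in the called direction for 88.3% of the 8680 called genes in SE21s, 97.9% in the hybrid and 95.4% in MH86. The calls used the same libraries of ZT3 and ZT27, and the share over all genes tested was not counted, so nothing is read from these shares. The ZT48 libraries held 0.0448 to 0.212 FPKM of PRR73 and 0.267 to 0.686 FPKM of GI, within or below the range of ZT0 and ZT24. ELF3-2 stood at 2.83 FPKM in SE21s, 33.04 in the hybrid and 74.8 in MH86 at ZT48, and LHCB2 at 630, 20.9 and 1.86 FPKM in the same lines, which is their order at ZT0 and ZT24. Hd3a in SE21s stood at 26.03 FPKM at ZT48, level with its mean of 26.01 FPKM over ZT3 and ZT27 and above its mean of 8.30 FPKM over ZT0 and ZT24.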

How the data were processed

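The authors deposited 1 table of FPKM values for 34653 identifiers in 51 libraries, and 12 libraries were used for the change. The tools named in the submitters' processing notes are TopHat2 and Cuffdiff. For versions, build and annotation, nothing is given in the sources used here. A reference gene table matched 0 identifiers, so no coordinates or sequences are printed, and symbols come from general knowledge of rice.

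Values were analysed as log2(FPKM + 0.5) in genes averaging 1 FPKM or more in the 51 libraries. The linear models used limma 3.58.1 under R 4.3.3. The variance prior was robust and followed a trend, tests were two-sided, and p-values were adjusted by Benjamini-Hochberg over 16842 genes at 0.05. The change over the first 3 h had a block for each line and day, since both libraries of a pair share them. Line and day differences were interaction terms in the same block. Steps were tested on simulated data. A 0 counts as doubtful if 2 or more of these libraries of its line, the ones just before and after it and those 24 h away, hold 10 FPKM or more. This was so for 133 values of 80 genes among the 12 libraries. They were kept as deposited.

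There are 277 loci in 30 lists, of which 274 are in the table. The others are not analysed here. Values of 1 gene in the lists are left out of the text, but the list counts include it. Members and lists were chosen with earlier results of these data known. Named are every tested clock gene and up to 4 members of each other list with the smallest adjusted p, and for line differences up to 3 with the smallest F-test p. Outside the lists 2 loci were named in each direction with a mean of at least 10 FPKM. Levels are FPKM and depth is unknown, so no counting intervals are given. Alternatives are other pseudocounts, filters, scalings, variance priors, zeros set missing, pairs left out, single days, all 51 libraries and other blocks.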

Additional observations from a re-analysis of the deposited data

Results flagged for a closer look

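The change over the first 3 h differed between the lines by the interaction F-test in the 6 members given here, as SE21s minus MH86 on the log2 scale. It was 3.53 for ELF3-2, 3.64 for DTH2, -6.42 for LHCB2, -3.62 for LHCA1, -4.28 for LHCA4 and 13.46 for RCA. The value of RCA rests on the libraries in which it is listed at 0.

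In 6 members 1 of the 6 pairs lay far from the others by Dixon's test at 95%, which chance gives in about 1 of 20 groups. The number of members looked at is not given, so these 6 are not read as more than chance gives. The pair of LY2186 on the second day stood apart with -0.78 for GLK2, -0.95 for RR10 and 6.42 for PIP2;7. The pair of LY2186 on the first day stood apart with -1.38 for NPR1. The pair of MH86 on the first day stood apart with 1.18 for PAO, and that of SE21s on the second day with 0.09 for MYC2.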

How the results depend on the processing

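Of 109 called changes of named genes, 67 kept direction and call under every alternative run, and 42 lost the call under at least 1, among them single days with 3 pairs. RCA turned to 0.071 with doubtful zeros set missing. No other called change reversed. With no replicate block, pairing dropped and line as covariate, 4116 genes rose and 4475 fell. On the first day alone 2039 rose and 2751 fell, and on the second alone 1723 and 1997. Leaving out 1 pair gave 7092 to 8349 called genes, and no called gene changed sign. Without filter, SE21s had 1976 called genes. Leaving out a pair gave 543 to 4534 in SE21s, 3714 to 5218 in LY2186 and 1144 to 6991 in MH86, lowest without a pair of that line. Counts of line differences depend on the settings. The F-test called 19 genes with pseudocount 0.1, 2 without filter, 27 with median-ratio and 30 with quantile scaling, 21 with plain eBayes and 74 with a replicate block for day, and 4 to 78 with a pair left out. SE21s minus MH86 had 6 without filter, 262 at a mean of at least 5 FPKM and 40 with plain eBayes, and 19 to 348 with a pair left out (lowest without the SE21s pair of day 1, highest without the LY2186 pair of day 1). LY2186 minus SE21s had 1 with pseudocount 0.1, without filter and at 5 FPKM, 2 with either scaling, 15 with zeros missing and 20 with the day block, and 1 to 20 with a pair left out. LY2186 minus MH86 had 3 with pseudocount 0.1, at 5 FPKM and with the day block, 1 without filter and 4 to 25 with a pair left out. LY2186 minus mid-parent had 2 with pseudocount 0.1 and the day block, 1 without filter and 1 to 23 with a pair left out. The day contrast had 0 with pseudocount 0.1, without filter and with plain eBayes, and 0 to 53 with a pair left out (53 without the SE21s pair of day 2). The cause was not tested. With 5 pairs the sign-flip test cannot pass, and the first interval exceeded the others by 0.181 to 0.226 (6 to 9 h), 0.238 to 0.272 (9 to 12 h), 0.102 to 0.141 (12 to 15 h), 0.252 to 0.281 (15 to 18 h), 0.158 to 0.219 (18 to 21 h) and 0.168 to 0.203 (21 to 24 h). At 5 FPKM the difference from 12 to 15 h was 0.118 and missed the threshold. Uncalled genes near 0 changed sign, namely LUX/PCL1 (0 with pseudocount 0.1, -0.339 to 0.357 with a pair left out), PRR1/TOC1 (-0.072 with quantile scaling, -0.47 on the first day, -0.189 to 0.30 with a pair left out) and WRKY45 (0.046, 0.099 and -0.325 to 0.142 likewise). On the first day alone COP1 had -0.068, GLK2 0.10, GA20ox2 0.553 and GLUA1 -0.017, and on the second GLK1 -0.076, HSP81-1 0.147 and PR1b -0.156. With a pair left out GLK2 had -0.123 to 0.086, GA20ox2 -0.252 to 0.098, WRKY76 -0.426 to 0.015 and NPR1 -0.264 to 0.082. The number of fragments is unknown, which limits statements on genes near 0.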
